A study of Prunus persica with 2 samples.

Results

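The auxin-related miRNAs miR160 and miR167 and the auxin response factor (ARF) transcripts listed as cleaved by them were examined in peach fruit. The members were chosen by name and ID: 4 of the 886 rows of the deposited miRNA list (miR160, miR167 and the predicted 5p arms m0091-5p and m0126-5p) and the 11 of 469 degradome pairs that contain these miRNAs or the transcripts ppa002082m, ppa002195m, ppa003136m, ppa002710m and ppa003267m. Both libraries came from 'Troubadour' peach fruit (spelled 'Troubador' in the labels) of 6-year-old trees, in which equal amounts of RNA were combined from fruits taken at 35, 55, 75, 90 and finally 105 days from full bloom. There was 1 small RNA library and 1 degradome library, so neither a change during fruit growth nor a spread between fruits could be measured, and no difference was tested between conditions. The degradome library holds the 5′ ends of cut, polyadenylated RNA, and reads that start at a fixed place inside a miRNA site count its cleavage.

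ARF proteins bind auxin response elements in promoters and switch auxin genes on or off. In Arabidopsis, miR160 guides the cutting of repressor-type ARF mRNAs, while miR167 guides the cutting of the activator-type ARF6 and ARF8 mRNAs. Plant miRNAs pair with their sites almost fully, and Argonaute cuts the mRNA opposite the middle of the miRNA.

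The mature sequences are shown first, because the name miR160 and the predicted arms carry opposite arms of a hairpin. They are given 5′ to 3′ as RNA, with the seed (bases 2 to 8) in capitals.
miR160 as listed: gCGUACGAggagccaagcaua
m0091-5p and m0126-5p: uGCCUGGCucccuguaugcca
miR167: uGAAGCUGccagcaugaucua
The 4 names thus stand for 3 sequences, each of 21 nt. The sequence shared by m0091-5p and m0126-5p is the one that plant databases call miR160, and it is called the miR160 sequence from here on. Its seed was found in 2 rows of the list, which are these arms themselves, while the seeds of listed miR160 and of miR167 were each found in 1 row, their own. No other listed miRNA shared a run of 10 or more bases with any of these sequences.

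The hairpins of m0091 and m0126 show where the arms sit (5p and 3p arm in capitals).
hairpin m0091: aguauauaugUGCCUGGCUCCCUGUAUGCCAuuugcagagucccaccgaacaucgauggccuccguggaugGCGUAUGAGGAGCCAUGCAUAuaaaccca
hairpin m0126: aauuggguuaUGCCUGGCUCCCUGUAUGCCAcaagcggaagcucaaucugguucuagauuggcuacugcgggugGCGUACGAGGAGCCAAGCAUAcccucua
In the assembly used by the study (release not given in the sources used here), hairpin m0091 lies on the minus strand of scaffold 2 at 21004706 to 21004805 and hairpin m0126 on the plus strand of scaffold 4 at 5325323 to 5325424. Listed miR160 was found whole at bases 75 to 95 of hairpin m0126, opposite the 5p arm at bases 11 to 31. Both ends of that pair of arms carried a 3′ overhang of 2 nt in the printed fold, and 17 bases of the 5p arm were paired with the 3p arm. Hairpin m0091 had the same 5p arm, with 16 bases paired and the same overhangs of 2 nt in its printed fold. A new fold by ViennaRNA differed from the printed one for hairpin m0091, while that of hairpin m0126 was the same. The 3p arm of hairpin m0091 at bases 72 to 92 differed from listed miR160 by 2 substitutions, C6U and A16U (base of listed miR160, position counted from 1 at its 5′ end, base of the hairpin). The row named miR160 therefore matched the 3p arm of only 1 of these hairpins, while the 5p sequence matched both.

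miR167 had 27038 reads in the small RNA library, the fourth highest count of the list, with an exact Poisson 95% interval of 26717 to 27362. This was 1.17% of the 2308209 listed reads, with a Clopper-Pearson interval of 1.16 to 1.19%. All intervals given here cover counting error only, with each read taken as independent, because 1 library shows no spread between fruits. Reads copied by PCR and not tagged per molecule may stem from the same RNA molecule, so the intervals may be too narrow. miR167 stood between miR166 with 39453 reads and miR913 with 20807 reads, and its ratios to them, 0.685 (0.675 to 0.696) and 1.30 (1.28 to 1.32), both lay away from 1.

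Listed miR160, whose row prints the 3p sequence, had 2419 reads (2324 to 2517), rank 20 of 886 and 0.105% of the listed reads. The study's list of conserved families gives the name miR160 to the 5p sequence, while its qRT-PCR primer of that name is the 3p sequence. It therefore cannot be told whether these reads were counted for the printed sequence or for the name. The nearest neighbours of listed miR160 in the order were miR5077 with 3027 reads and miR2916 with 2132 reads. Both differed from it beyond counting error. The rows that print the 5p sequence had lower counts, with 818 reads under m0126-5p (763 to 876, rank 26) and 807 reads under m0091-5p (752 to 865, rank 28). These counts, given for 1 sequence under 2 names, agree within sampling noise, with a ratio of 1.01 (0.919 to 1.12). The rule by which reads of the 5p sequence were assigned to the hairpins was not stated. miR2118, a row between them with 810 reads, could not be separated from either.

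The row named miR160 had 2.96 times the reads of the m0126-5p row (2.73 to 3.21), and 1.49 times (1.40 to 1.59) those of both 5p rows added. These are ratios of the 3p to the 5p arm only if the miR160 row counts its printed sequence, and they give no arm ratio if it counts reads of the 5p sequence under that name. miR167 had 33.1 times the reads of m0126-5p (30.8 to 35.5) and 11.2 times those of listed miR160 (10.7 to 11.7). The 5p arm and miR167 start with U, as 44.6% of listed rows did, while listed miR160 starts with G, as 14.1% of rows did. All 4 members were abundant for this list, whose median row had 4.5 reads.

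**Figure D1:**
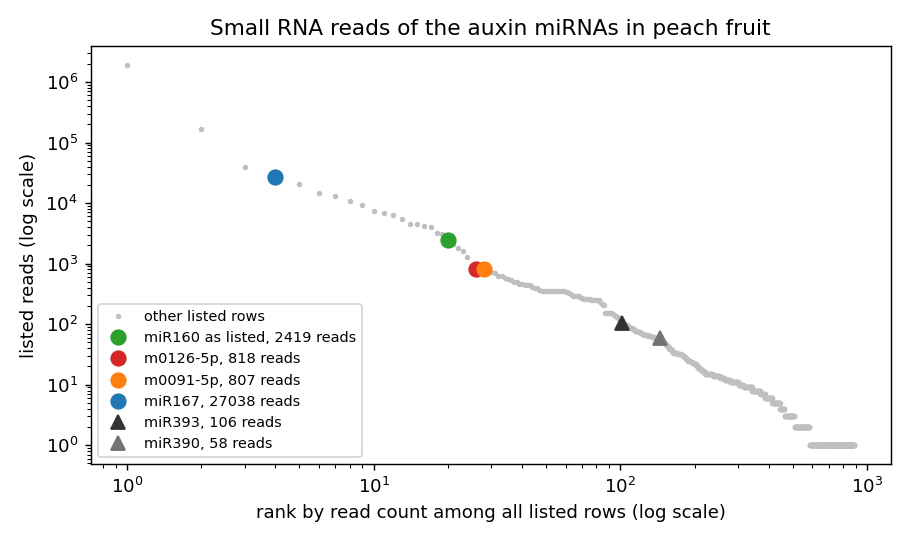
Read count against rank for all 886 rows of the miRNA list, both axes on a log scale, with the members and the auxin-linked miR393 and miR390 in colour. miR167 with 27038 reads stands above listed miR160 with 2419 reads and the 5p arms with 818 and 807 reads.

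The cleaved sites are shown next, since their pairing is what the alignment score of each pair measures. Each is given 5′ to 3′ as RNA, and capitals mark bases without a Watson-Crick pair to the miRNA in an ungapped alignment.
ppa002082m: Aggcauacagggagccaggca
ppa002195m: uggcauGcagggagccaggca
ppa003136m: uggcauGcagggagccaggca
ppa002710m: Gggcauacagggagccaggca
ppa003267m, site of miR167: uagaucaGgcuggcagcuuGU
By the study's homology annotation, ppa002195m is ARF16, ppa003136m ARF17, and ppa002082m and ppa002710m both ARF18, while ppa003267m is ARF8. The genes lie on scaffold 6 at 7149395 to 7153924 (ppa002082m) and at 21844610 to 21847830 (ppa002195m), on scaffold 1 at 40874725 to 40878820 (ppa003136m), on scaffold 2 at 20903304 to 20905535 (ppa002710m) and on scaffold 10 at 729776 to 736150 (ppa003267m). Their sites are numbered along the transcripts, and their exon and coding positions were not analysed here.

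In ungapped alignments, the 4 sites of the miR160 sequence each had 20 Watson-Crick pairs of 21, against 18 of 21 at the ARF8 site of miR167. Relative to the miRNA, with positions counted from 1 at its 5′ end and the site written as its reverse complement, ppa002195m and ppa003136m both carried U15C, a G:U pair. ppa002082m carried A21U and ppa002710m A21C, both unpaired and both at the last base of the miRNA. None of the 4 had a mismatch at positions 1 to 14. The ARF8 site carried U1A, G2C and A14C, so in its ungapped alignment it was unpaired at the first 2 bases of miR167. The deposited alignment scores, in which a mismatch costs 1 and a G:U pair 0.5, doubled at positions 2 to 13, were 0.5 for ppa002195m and ppa003136m, 1 for ppa002082m and ppa002710m, and 4 for ppa003267m. The same values were obtained from the ungapped alignments of the printed sequences. For ARF8 the deposited stretch is 1 base longer than the miRNA, so its score of 4 may belong to a different alignment. ViennaRNA predicted duplex energies of -45.4 to -45.2 kcal/mol at the sites of the miR160 sequence, from 99.6 to 100% of that with a full complement, against -31.2 kcal/mol or 80.2% at the ARF8 site.

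**Figure D2:**
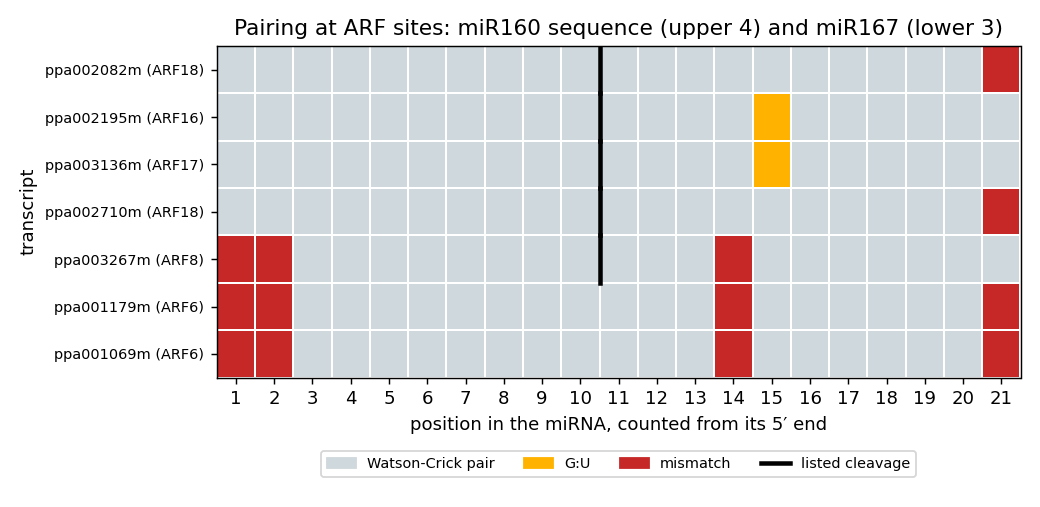
Pairing of each miRNA position (x axis, from the 5′ end) with ARF transcripts (rows), where colours mark Watson-Crick pairs, G:U pairs and mismatches, and black bars mark listed cleavage. In ungapped alignments, departures from pairing lie at positions 15 or 21 for the miR160 sequence, against positions 1, 2 and 14 for ARF8, with 21 added in the ARF6 transcripts.

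At all 5 ARF sites the listed cleavage lay opposite the centre of the miRNA. The caller counts reads at this fixed place of a predicted site. The position was thus set by the listing and is no finding about these sites. The cleavage site was nucleotide 1355 in ppa002082m, 1591 in ppa002195m, 1346 in ppa003136m and 1283 in ppa002710m, each pairing with position 10 of the miRNA. In ppa003267m it was nucleotide 1628. The deposited stretch for ARF8, 1617 to 1638, is 1 base longer than the miRNA and puts this nucleotide at position 11 counted from its end, while the ungapped alignment at 1617 to 1637 puts it at position 10.

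Cleavage reads were highest at ppa002082m, with 133 raw degradome reads (exact Poisson interval 111 to 158). ppa002710m had 49 reads (36.3 to 64.8), ppa002195m 46 (33.7 to 61.4) and ppa003136m 33 (22.7 to 46.3), against 18 reads (10.7 to 28.4) at the ARF8 site of ppa003267m. ppa002082m thus held 51.0% (44.7 to 57.2%) of the 261 reads on the 4 transcripts of the miR160 sequence and stood 2.71 times above the second (1.94 to 3.85). The other 3 did not separate in order, with ratios of 1.07 (0.698 to 1.63) for ppa002710m over ppa002195m and 1.39 (0.872 to 2.25) for ppa002195m over ppa003136m. Both transcripts with a score of 0.5 had fewer reads than both with a score of 1, but the intervals of 46 and of 33 reads both overlapped that of 49. The 2 with an identical site, ppa002195m and ppa003136m, had 46 and 33 reads. Reads at a site rise with the amount of the transcript as well as with its cutting, and transcript levels were not measured in these files.

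Against the ARF8 site, the reads were 7.39 times as many at ppa002082m (4.50 to 12.9, exact conditional interval), 2.72 times at ppa002710m (1.56 to 4.97), 2.56 times at ppa002195m (1.45 to 4.68) and 1.83 times at ppa003136m (1.00 to 3.46). The interval for ppa003136m barely cleared equality, since its lower bound was 1.003. In the small RNA library the order was the reverse, with 818 reads of m0126-5p against 27038 of miR167. This gave 3.13 small RNA reads of m0126-5p per cleavage read on its ARF transcripts, against 1502 of miR167 per cleavage read on ARF8. The value of m0126-5p sums 4 ARF sites and takes 1 of the 2 names of the 5p sequence, while that of miR167 rests on 1 site. The row named miR160 may also count the 5p sequence, and the predicted ARF6 sites of miR167 are not in the list. The libraries were made separately as well, so both values are a description only, and their contrast was not tested.

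**Figure D3:**
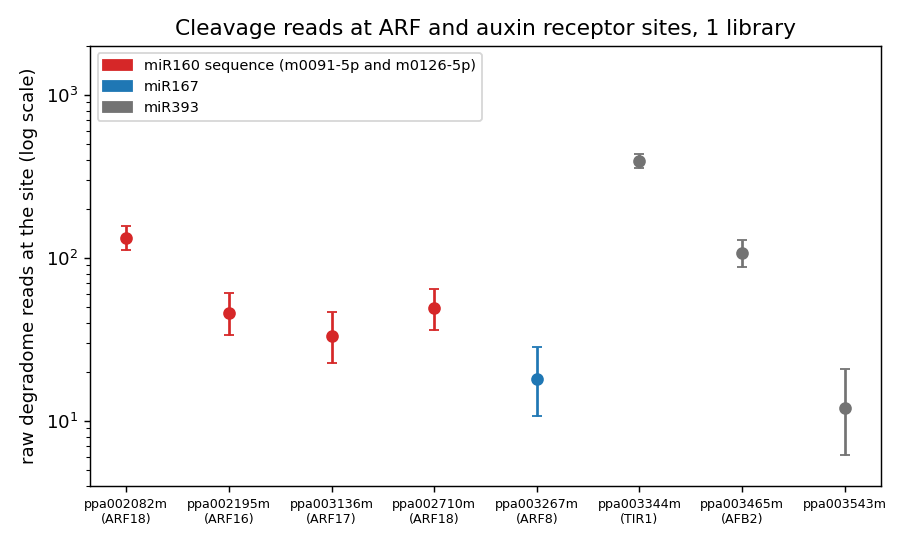
Raw degradome reads at each site (log scale) in the 1 library, with exact Poisson 95% intervals, for the ARF sites of the miR160 sequence, the ARF8 site of miR167 and the sites of miR393. ppa002082m with 133 reads stands above the other ARF sites, and ARF8 with 18 reads is the lowest of the ARF sites.

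By the category of the authors' caller, in which 0 means that the site is the single highest position on its transcript and 4 that it holds 1 read, all 5 ARF sites were of category 0. Since 4 of them are listed under both m0091-5p and m0126-5p, they make 9 of the 11 pairs, where 14.5% of all 469 pairs were of category 0. The same 9 pairs had the authors' p under 0.05, against 18.6% of all pairs. That p was 0.00849 for ppa002082m and ppa002710m, 0.00914 for ppa002195m and ppa003136m, and 0.00687 for ARF8. With a Benjamini-Hochberg adjustment over the 469 pairs none of the 9 passed, nor did any other pair, and the lowest adjusted value was 0.125. Counted by distinct sequence and site, the members make 6 of 423 pairs, of which 5 were of category 0, against 13.9% of the 423.

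The alignment scores place the miR160 and ARF8 sites in different company. A score of 1 or lower was held by 23, or 5.44%, of the 423 distinct pairs, of which 10, or 43.5%, were of category 0, with a median of 47.5 reads, and 4 of these 10 were the ARF sites of the miR160 sequence. A score of 4, the highest in the list, was held by 223, or 52.7%, of them, of which 9, or 4.04%, were of category 0, and the ARF8 site was 1 of these. Those 9 sites had from 9 to 216 reads with a median of 21, and ARF8 with 18 was the third lowest of them. Without regard to category, the median was 3 reads for the 23 pairs with a score of 1 or lower and 1 read for the 223 with a score of 4. Over all 393 distinct cleavage sites, ppa002082m ranked 8, ppa002710m 21, ppa002195m 23, ppa003136m 27 and ARF8 43, and 50.9% of the sites had a single read. The sites nearest to ppa002082m in reads were that of miR396 on ppa022685m with 216 reads, from which it differed (ratio 0.616, 0.492 to 0.768), and that of miR397 on ppa022440m with 124, from which it did not separate (1.07, 0.833 to 1.38). For the other 4 ARF sites, none of the 2 next higher and 2 next lower sites separated from the member. Those sites were picked as the nearest in reads, so this was largely set by the choice.

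**Figure D4:**
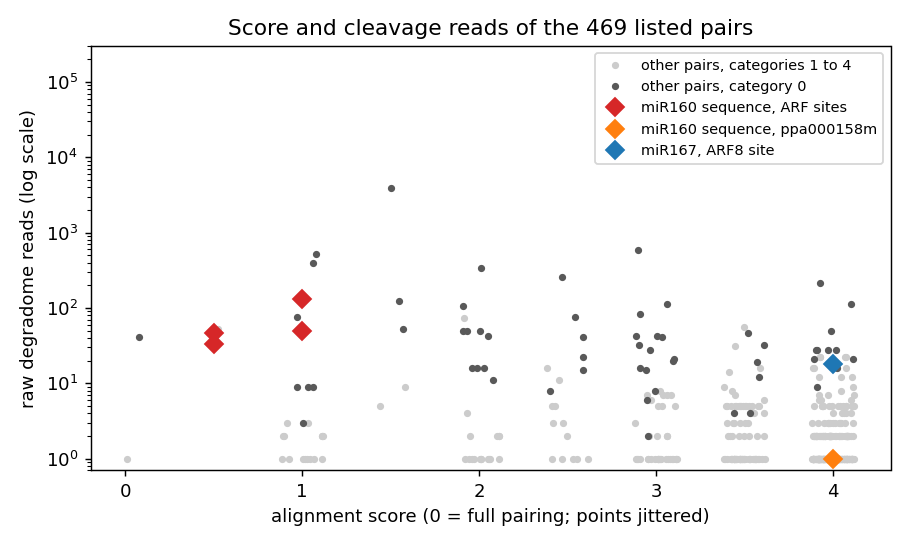
Raw degradome reads (log scale) against alignment score for all listed pairs, with category 0 in dark grey and the members as diamonds. The ARF sites of the miR160 sequence lie at scores of 0.5 and 1 with 33 to 133 reads, and the ARF8 site lies at a score of 4 with 18 reads, above most pairs of that score.

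A sixth transcript, ppa000158m, was also listed with m0091-5p and m0126-5p. Its site at nucleotide 3765 had a score of 4, category 4, 1 read (0.0253 to 5.57) and the authors' p of 0.248, so it had 0.0556 times the reads of ARF8 (0.00133 to 0.352). The name miR160, with its 3p sequence, had 0 pairs in the degradome list, and no other miRNA was listed with any of the 5 ARF transcripts.

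Other predicted sites of these miRNAs were absent from the degradome list. Of 5 further transcripts taken as predicted, 1 (ppa000158m) was listed and 4 were not. The listed transcript had no site in the alignments read for m0091-5p and miR167. The 4 not listed were the ARF6 transcripts ppa001179m and ppa001069m, the wound-responsive gene ppa019175m and ppa002691m. Their sites gave scores of 5 for both ARF6 transcripts, 5.5 for ppa019175m and 4.5 for ppa002691m by the same rule, all above the highest score in the list, so their absence says nothing about cleavage. The ARF6 sites are shown because they differ from the ARF8 site by a single base, their first.
ppa001179m and ppa001069m: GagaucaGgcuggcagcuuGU
That base is opposite the last base of miR167 and adds the mismatch A21C to the 3 mismatches of ARF8, which lowers the pairs to 17 of 21 and gives a predicted energy of -31.0 kcal/mol.

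The bases around the sites showed how far the transcripts were alike beyond the miRNA. In the miR160 group, 19 of the 21 site positions had the same base in all 4 transcripts, against 7 of 30 upstream and 8 of 30 downstream. ppa003136m was the most distant in the flanks, with 21 to 26 of 60 flanking bases shared with the others, and its site was identical to that of ppa002195m. Among the other 3, from 38 to 46 of the 60 flanking bases were shared. In the miR167 group ARF8 shared 48 of 60 flanking bases with ppa001179m and 45 of 60 with ppa001069m. The lower of these values lies within the 38 to 46 above. The ARF6 transcripts shared 54 of 60 with each other. The 3 transcripts of this group had the same base at 20 of 21 site positions, which was likewise largely set by their choice.

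**Figure D5:**
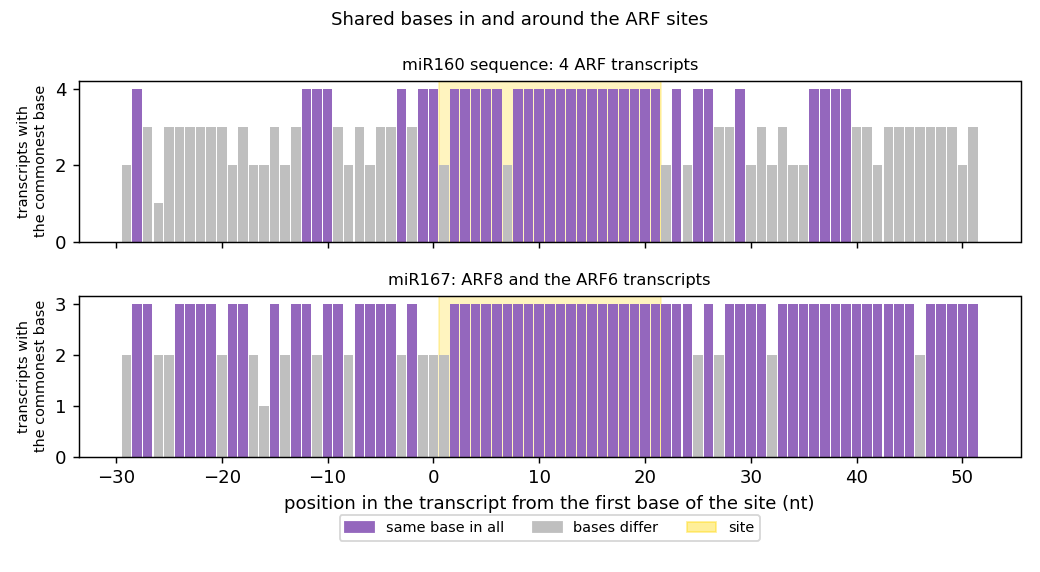
Number of transcripts that hold the commonest base at each position (y axis) from 30 nt before to 30 nt after the site (x axis, nt from its first base), with the site shaded. In the upper panel the 4 ARF transcripts of the miR160 sequence share 19 of 21 bases in the site and few outside it, and in the lower panel ARF8 and the ARF6 transcripts share most bases on both sides.

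Other miRNAs of the auxin pathway are given for scale. miR393, which in plants targets the auxin receptors TIR1 and AFB2, had 106 small RNA reads (86.8 to 128), fewer than any of the 4 members. Its sites had 394 reads on the TIR1 transcript ppa003344m and 107 on the AFB2 transcript ppa003465m, both of category 0, and 12 on ppa003543m, of category 2. The TIR1 site thus had more reads than any ARF site, and the interval of the AFB2 site (87.7 to 129) overlapped that of ppa002082m. miR390, which starts the making of small RNAs against other ARF mRNAs in plants, had 58 reads (44.0 to 75.0). Its 3 listed sites held 1 read on ppa001834m, 1 on ppa001305m and 5 on ppa012591m, and none was of category 0.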

How the data were processed

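The labels do not name the assay of each sample; it was taken from the columns of its table. The deposited small RNA counts are raw reads per listed miRNA, made by the authors from 1 library (17 PCR cycles) by removing reads of other RNA classes, naming what remained by its match to miRBase plant entries and predicting hairpins with MIREAP. The authors made the degradome table with CleaveLand 3.0 and targetfinder. Its raw reads are deposited counts at the cleavage site, its normalized reads are a deposited signal equal to the raw reads in all 11 pairs used, and its p-value and alignment score are the authors'. Degradome depth, thresholds and genome release: not given in the sources used here.

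Hairpins, sites with 30 nt on each side, and places were read from the study's tables as sequence only. Those copies are partly shortened, so no set test was run. The miRNA position at cleavage was counted back from the last aligned transcript base, which is position 1. Counts have exact Poisson, shares Clopper-Pearson, and ratios exact conditional binomial intervals (95%). Python 3.11.15, SciPy 1.17.1, pandas 2.3.3, matplotlib 3.10.9 and ViennaRNA 2.7.2 (RNAduplex and RNAfold) were used, and the functions were tested on simulated data. Named are all members, every transcript listed with them, a fixed list of auxin genes and miRNAs, and nearest neighbours by reads or sequence. Members and lists were chosen with earlier results of these data known. Alternatives covered denominators, repeated names, thresholds, normalized reads and the gap at ARF8. The RefSeq gene table holds none of these transcript IDs and was not used.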

Additional observations from a re-analysis of the deposited data

How the results depend on the processing

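No paired analysis was possible because each kind of library is 1 sample. The ratios to the ARF8 site were identical with normalized reads, but these equal the raw reads in all 11 pairs, so this was no separate check. The counts of pairs were 9 at a stricter p, 9 with category 1 added and 9 with at least 5 reads. With a score of 2 or lower 8 pairs were left, without the ARF8 site, the only listed site of miR167. All of these counts stayed within 1.5 times of the counts above. With each sequence and site taken 1 time, the 11 pairs became 6. With the Benjamini-Hochberg adjustment, 0 of the 11 pairs passed, against 9 at the authors' p under 0.05. Without miR156 and miR157 the shares of listed reads were 1.06% for miR160, 11.8% for miR167, 0.352% for m0091-5p and 0.357% for m0126-5p, and among known miRNAs alone that of miR167 was 1.20%. The rank of miR160 among known miRNAs was 15. The ratio of the row named miR160 to the 5p rows was 1.49 with both names summed. The cleavage position at ARF8 was 10 in the ungapped alignment, against 11 from the listed stretch. The depth of the small RNA list is 2308209 reads. At the degradome sites, 33 to 49 reads could not order 3 of the ARF sites.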

Other observations

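The hairpin m0091 and an ARF transcript of the miR160 sequence lie on the same scaffold. On scaffold 2, 99170 bases separate the end of ppa002710m from the start of hairpin m0091. The other ARF transcripts of the miR160 sequence lie on scaffolds 1 and 6, and hairpin m0126 lies on scaffold 4 with the ARF6 gene ppa001179m.

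The 3p arm of hairpin m0091, which is not itself in the miRNA list, shared a run of 10 bases with m0024-5p, a predicted arm with 33 reads. It was the only listed miRNA with a run of that length, while its longest run shared with listed miR160 was 9 bases.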
